A study of Mus musculus with 20 samples.

Results

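The genes described here are 9 interferon-stimulated genes, Ifit1, Ifit2, Ifit3, Ifitm3, Isg15, Oasl2, Stat2, Usp18 and Bst2, followed across 20 hippocampal RNA-seq libraries. They were taken from the gene map by name, with earlier results of these data known, and each symbol had a single entry among the 48709 annotated genes. All 9 were among the 19797 genes with enough reads for testing. The mice were C57BL/6 young adults (C57BL/6J in the study's methods) whose dams had breathed either filtered air (control) or re-aerosolized nPM, the nano-sized fraction of urban particulate matter, during pregnancy. Exposure ran from gestational day 2 until birth, on 3 days of each week and for 5 h a day, at a concentration given as 300 mg/m3 in the sample labels and as 300 μg/m3 in the study's methods. There were 5 control females (17.71 to 18.29 weeks old), 5 nPM females (18.00 to 18.29 weeks), 5 control males (18.57 to 19.14 weeks) and 5 nPM males (18.86 to 19.14 weeks), so every male was older than every female. The methods also state that male offspring were injected with EdU, a thymidine analog that labels dividing cells, before tissue collection. Sex can therefore not be told apart from age or from EdU. The offspring came from 5 litters per exposure and the labels do not tie samples to litters, so some of the 10 samples of an exposure may share a litter, which the p-values do not take into account.

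Interferons are secreted proteins that warn neighboring cells of infection. Type I interferons bind the Ifnar1 and Ifnar2 receptor, which activates the kinases Jak1 and Tyk2, and these phosphorylate Stat2. Together with Irf9 and other partners, phosphorylated Stat2 enters the nucleus and binds the interferon-stimulated response element, a short DNA motif in the promoters of antiviral genes. In the brain, microglia, astrocytes, neurons, vascular cells and the choroid plexus can all respond in this way, and a low level of such transcripts is present without infection. The 9 genes take different parts in the pathway. Stat2 is the signal-carrying transcription factor, Usp18 and Isg15 are a negative regulator of the receptor and a ubiquitin-like protein that Usp18 removes from its targets, and the other 6 encode antiviral effectors.

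The promoters are shown because they carry the sequence through which this pathway acts. The response element was searched as GAAANNGAAA on either strand in windows of 300 bases around RefSeq transcription starts (250 bases before and 50 after, mouse build GRCm38.p6). Windows were matched for 8 of the 9 genes, all but Usp18, and 6 of the 8 held the motif, against 3.99% of the 27025 genes with a window. Of a list of 59 other interferon-stimulated genes, 46 were matched, and 21 of these 46 held the motif. The matches before the start are printed below 5′ to 3′ on the gene's strand, with the motif in capitals. They lie at chr19:34640771-34640827 for Ifit1, chr19:34583359-34583430 for Ifit3 (both on the plus strand), chr4:156200861-156200910 for Isg15 (minus strand), chr10:128270262-128270299 for Stat2 (plus strand) and chr8:71537573-71537616 for Bst2 (minus strand).
Ifit1: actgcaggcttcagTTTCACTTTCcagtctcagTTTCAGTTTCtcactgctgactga
Ifit3: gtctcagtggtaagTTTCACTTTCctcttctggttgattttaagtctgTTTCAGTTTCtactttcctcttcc
Isg15: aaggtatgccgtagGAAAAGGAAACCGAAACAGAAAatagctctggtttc
Stat2: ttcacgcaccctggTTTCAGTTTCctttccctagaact
Bst2: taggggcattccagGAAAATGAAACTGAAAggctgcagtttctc

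Ifit1 and Ifit3 each carried 2 separate copies on the opposite strand. Isg15 carried 3 overlapping copies and Bst2 carried 2 overlapping copies, so that the capitals form a single run in each. The 2 copies in Ifitm3 began 2 and 19 bases after the start and are not printed. Ifit2, which has 2 windows, and Oasl2 had no match, which says only that these letters were not in the windows searched. The related gamma-activated site, searched as TTCNNNGAA, was found in the windows of 3 of the 8 genes (Ifit2, Ifitm3 and Bst2). This compares with 9.55% of all genes and 11 of the 46 other interferon-stimulated genes. The copy in Bst2 overlapped its response element. A match is a stretch of letters and not a shown binding site.

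All 9 genes were weakly transcribed in these hippocampi. Ordered by mean RPKM, which divides the count by gene length and library size, Ifitm3, a membrane protein that blocks virus entry, came first with 5.39 ± 1.71 (SD, n = 20). It was followed by Stat2 with 3.61 ± 0.536 and Ifit2 with 3.08 ± 0.551. Ifit3 (2.44 ± 0.596) and Bst2 (2.32 ± 1.44), a surface protein that tethers budding virus, were next. Ifit1 (0.734 ± 0.338), Isg15 (0.473 ± 0.293), Oasl2 (0.293 ± 0.0957) and Usp18 (0.233 ± 0.132) were all below 1 RPKM. The order depends on the gene length, which the deposited table gives as 6374 bases for Oasl2. With the 3123 bases of its longest transcript in place of this, a choice made after the data were seen, Oasl2 had a mean of 0.598 RPKM and came before Isg15, and Bst2 (2.64 RPKM) came before Ifit3. Neighbors in the order on the deposited lengths were compared by paired sign-flip permutation tests (two-sided, 100000 resamples, adjusted over 8 comparisons). The order was taken from the same values, so these p-values are a description and no independent test of the order. On the deposited lengths, Ifit3 and Bst2 did not differ beyond their spread (adjusted p = 0.149), nor did Isg15 and Oasl2 (adjusted p = 0.131). Both pairs changed order with the transcript lengths, so these 2 results hold for the deposited lengths only. The other 6 neighbors differed, with adjusted p from 8e-05 to 0.0268. The order of Stat2 over Ifit2 held in 11 of 20 samples only.

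Read counts set how closely each gene could be followed. Libraries held 19092067 to 38663408 counts on genes, with a median of 29468930, and a count of 3, the most that a count of 0 still allows, corresponded to 0.0776 to 0.157 CPM. Isg15 had 1 to 25 counts per sample and Usp18 had 3 to 51, so single values of these genes are imprecise, and the lowest Isg15 count of 1 has an exact 95% Poisson interval of 0.0253 to 5.57. Stat2 (263 to 591 counts) and Ifit2 (188 to 557 counts) were the best covered. For every one of the 9 genes, samples of the same group varied more than counting alone gives, with a variance from 3.44 times (Isg15) to 23.8 times (Bst2) that of counting. After the part due to counting was removed, the coefficient of variation between samples of a group was lowest in Stat2 (9.45%) and highest in Bst2 (59.7%).

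Some of these genes share sequence with close copies. Ifit1, Ifit2 and Ifit3 lie together at chr19:34640871-34650009, chr19:34550694-34576419 and chr19:34583531-34588731 on the plus strand of mm10. Of the 50-base stretches of the longest Ifit3 transcript, 51.2% also occur in Ifit3b, and 7.13% of those of Ifit1 occur in Ifit1bl1 or Ifit1bl2. For Ifitm3 (chr7:141009586-141010770) 10.02% occur in other genes, Gm7676 and Ifitm2 among them. Usp18 (chr6:121245906-121270917) overlaps the noncoding gene Gm44148 on the opposite strand, which holds 4.47% of its stretches. For Isg15 (chr4:156199424-156200818) the share was 3.96%. Oasl2 (chr5:114896936-114912234), a member of the oligoadenylate synthetase family, Stat2 (chr10:128270576-128292849), Bst2 (chr8:71534255-71537456) and Ifit2 shared no such stretch with another gene. How the authors' counting treated shared reads and strand is not given in the sources used here, so the level of Ifit3 in particular is uncertain.

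**Figure D1:**
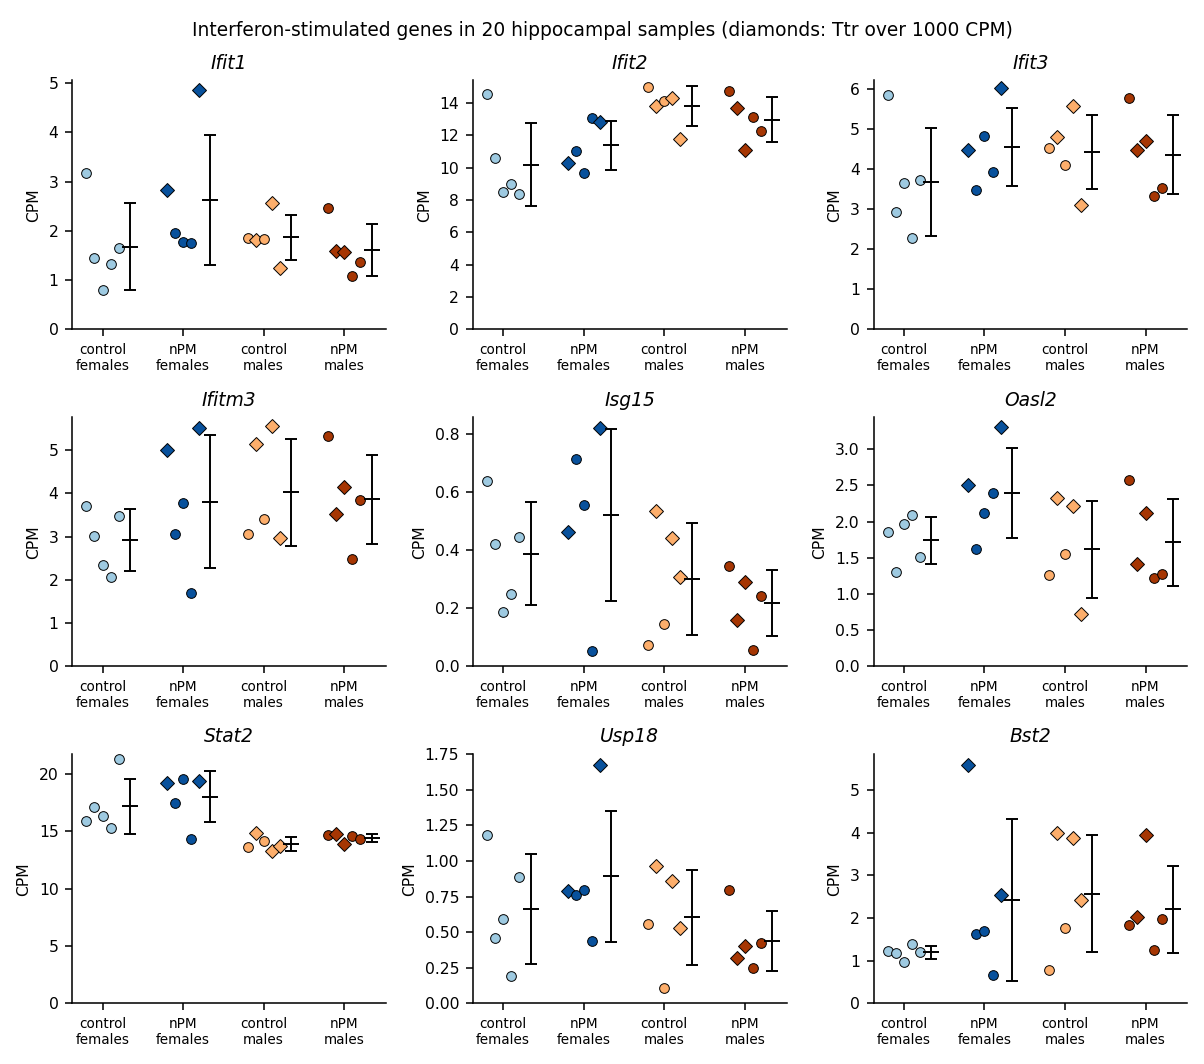
CPM of each of the 9 genes (vertical axes, from 0) in the 5 samples of each group, with 1 point per sample and the mean ± SD beside it in black. Diamonds mark the 7 libraries with more than 1000 CPM of the choroid plexus transcript Ttr. The control and nPM points overlap within each sex for all 9 genes, and the Bst2 diamonds all lie above the Bst2 circles.

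The first question was whether gestational nPM left a trace on these genes in the adult hippocampus. Not one of the 9 passed p under 0.005 in limma-voom in females, in males, in both sexes together or in the sex difference of the effect, and not one passed an adjusted p of 0.05. At p under 0.05 the count was also 0 of 9 in each of the 4 comparisons. The edgeR and DESeq2 tests gave 0 at p under 0.005 as well, and at p under 0.05 both called Bst2 in females and DESeq2 called Bst2 in the sex difference. The 0 at p under 0.05 did not hold when samples were left out. Of 90 values with 1 of the 10 females left out, 9 had p under 0.05, which were Ifit1, Ifit2 and Ifit3 without control female 1, Oasl2 without control female 4 or nPM female 2, Ifit1 without nPM female 3, and Ifitm3, Isg15 and Bst2 without nPM female 4. In the sex difference 10 of 180 such values had p under 0.05, 6 of them for Ifit1, and in males and in both sexes 0 had. Over all 19797 genes, the share called at p under 0.005 was 0.0909% in females, 0.207% in males, 0.141% in both sexes and 0.217% in the sex difference, and at p under 0.05 it was 1.99%, 4.28%, 2.1% and 3.79%, so the members' count of 0 lies close to this background.

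In females the fold changes of all 9 genes were above 0, with a median of 0.42 on the log2 scale, where 51.2% of all genes were above 0. Ifit1, whose protein binds foreign RNA, had 3.17, 1.45, 0.81, 1.33 and 1.64 CPM in control females and 2.84, 1.95, 1.77, 1.75 and 4.86 CPM in nPM females. Control female 1 and nPM female 5 stood above the rest of their groups, and the groups overlapped. The log2 fold change was 0.74 (SE 0.37, 95% interval -0.07 to 1.54, p = 0.0695), and the exact permutation test on log2 CPM (two-sided, smallest possible p = 0.00794) gave p = 0.151. Oasl2 had 1.86, 1.30, 1.96, 2.09 and 1.51 CPM in control females and 2.51, 1.62, 2.12, 2.40 and 3.31 CPM in nPM females. Of the 5 nPM females, 4 lay above every control, while nPM female 2 lay among the controls. Its log2 fold change was 0.45 (SE 0.22, 95% interval -0.02 to 0.93, p = 0.0603, exact permutation p = 0.0635).

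Bst2 differed between the 2 female groups more in spread than in order. Control females had 1.22, 1.18, 0.966, 1.39 and 1.20 CPM, and nPM females had 5.58, 1.62, 1.70, 0.655 and 2.53 CPM. The 5 controls kept close together, while the nPM females held both the highest and the lowest value of all 20 samples. The log2 fold change was 0.81 (SE 0.44, 95% interval -0.15 to 1.76, p = 0.0900, exact permutation p = 0.230). The other 6 genes had log2 fold changes from 0.12 (Stat2) to 0.65 (Usp18), with p from 0.121 to 0.558. The interval of Isg15, from -0.88 to 1.56, was the widest of the 9. The adjusted p was 0.9999 for each of the 9 genes.

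In males the fold changes were mostly of the other sign, with 7 of 9 fold changes below 0 and a median of -0.08. Of all 19797 genes, 9987 were below 0 in males. Ifit1 had 1.86, 1.82, 1.85, 2.56 and 1.26 CPM in control males and 2.46, 1.60, 1.57, 1.08 and 1.36 CPM in nPM males (log2 fold change -0.23, SE 0.25, p = 0.381, exact permutation p = 0.365). Oasl2 had 1.27, 2.32, 1.55, 2.22 and 0.726 CPM in control males and 2.57, 1.41, 2.12, 1.22 and 1.27 CPM in nPM males (0.15, SE 0.34, p = 0.657, exact permutation p = 0.754). The male groups overlapped almost fully for both genes. Bst2 had 0.782, 3.998, 1.77, 3.86 and 2.43 CPM in control males and 1.83, 2.02, 3.95, 1.24 and 1.97 CPM in nPM males, a log2 fold change of -0.17 (SE 0.42, p = 0.699, exact permutation p = 0.825). Exact permutation p-values in males were between 0.135 (Stat2) and 0.929 (Ifit3).

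**Figure D2:**
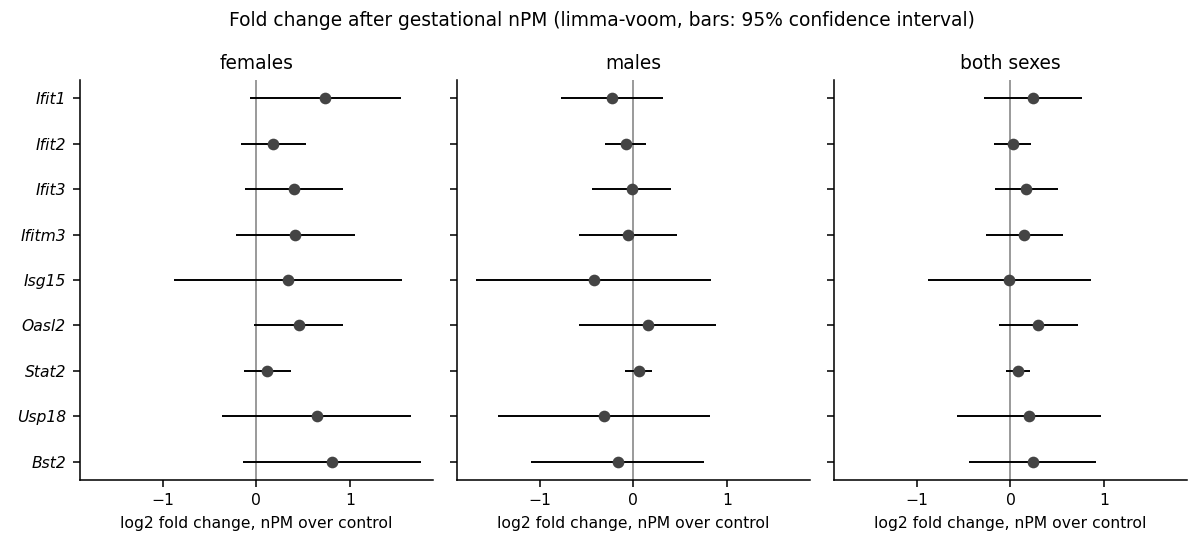
log2 fold change of nPM over control for the 9 genes in females, in males and in both sexes (horizontal axes, limma-voom, points), with 95% confidence intervals as bars. All 9 points are above 0 in females and 7 of 9 are below 0 in males, and each interval includes 0.

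The difference between the sexes was tested directly. In this contrast, the effect in males less that in females, all 9 values were negative, with a median of -0.46, where 47.5% of all genes were negative. The sizes ranged from -0.05 (Stat2, SE 0.13) to -0.96 (Bst2, SE 0.66). Ifit1 had the smallest p, with a difference of -0.95 (SE 0.47, 95% interval -1.93 to 0.03, p = 0.0565, and p = 0.082 when exposure was permuted within sex in an exact test). With both sexes in 1 fit and sex as covariate, 8 of 9 fold changes were above 0, where 9311 of all 19797 genes were. They ranged from -0.01 (Isg15) to 0.30 (Oasl2), with p from 0.152 to 0.980. Since the 9 genes varied together across samples, their shared sign is less than 9 separate observations.

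These signs changed in part when 7 libraries that carried more choroid plexus RNA were left out. The dissected tissue held 10.3 to 7660 CPM of Ttr, the thyroid hormone carrier made by the choroid plexus, and more than 1000 CPM was found in nPM females 1 and 5, control males 2, 4 and 5 and nPM males 2 and 3, but in none of the control females. Without these 7 libraries, a choice made after the data were seen that left 3 nPM females and 2 control males, the median fold change in females fell to 0.15 with 8 of 9 above 0, that in males was 0.18 with 6 of 9 above 0, and that of the sex difference was 0.03 with 5 of 9 above 0. The fold change of Bst2 in females was then 0.12 and that of Ifit1 0.28. The removal takes out nPM females 5 and 1, the samples with the highest mean z scores over the 9 genes (1.43 and 0.83). Whether their Ttr content mattered for the fall was not tested. The choroid plexus list (Ttr, Folr1, Kl, Clic6 and Kcnj13, all 5 past the filter) summed to 34.7 to 493 CPM in control females, 52.9 to 8119 CPM in nPM females, 31.5 to 7225 CPM in control males and 61.5 to 5485 CPM in nPM males. With the mean level of this list as a covariate, all 9 fold changes in females stayed above 0 with a median of 0.40. In males 7 of 9 stayed below 0 (median -0.09), and in the sex difference all 9 stayed below 0 (median -0.40).

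Bst2 was the gene whose level set these libraries apart. Its level was 2.02 to 5.58 CPM in the 7 libraries with over 1000 CPM of Ttr and 0.655 to 1.97 CPM in the other 13, with no overlap, a separation shared by 1.19% of all tested genes. The other 8 genes overlapped between the 7 and the 13 libraries. Ifitm3, for example, had 2.96 to 5.56 CPM in the 7 and 1.69 to 5.32 CPM in the 13, and Stat2 had 13.3 to 19.4 CPM and 13.6 to 21.3 CPM. With the mean level of the choroid plexus list as a covariate, the fold change of Bst2 in both sexes was 0.198 in place of 0.237. Against the level of this list, Bst2 had r = 0.899 among the 7 libraries (permutation p = 0.0142, adjusted p = 0.163). Among the other 13 it had r = 0.017. In a bulk sample, more cells of a type and more RNA per cell cannot be told apart. The part of the choroid plexus in the nPM differences of Bst2 was not tested beyond these values.

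**Figure D3:**
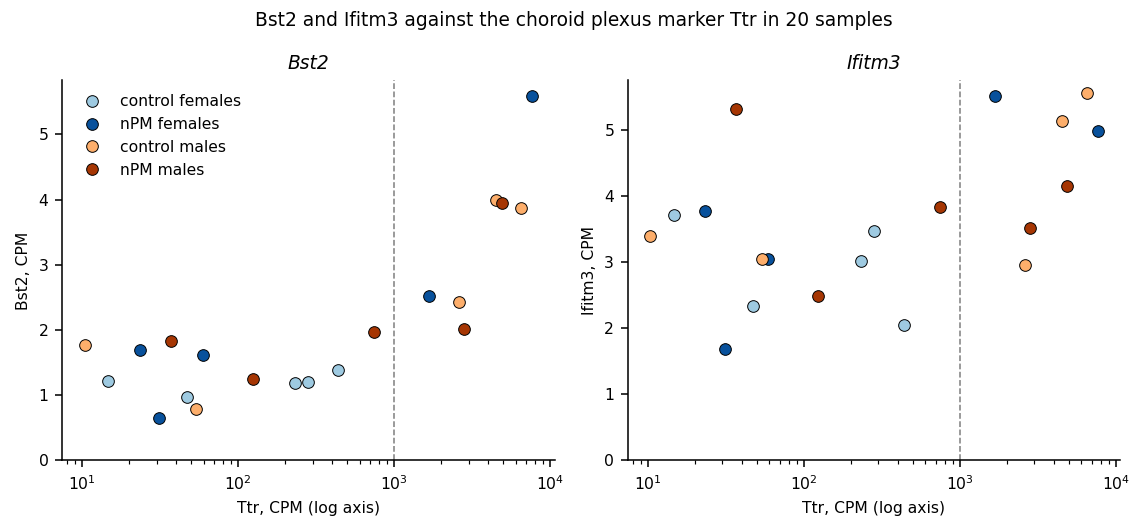
CPM of Bst2 (left) and Ifitm3 (right) on the vertical axes against CPM of Ttr (horizontal log axes) in the 20 samples, colored by group, with a dashed line at 1000 CPM of Ttr. The 7 points right of the line have 2.02 to 5.58 CPM of Bst2 and lie above all 13 points left of it, whereas the Ifitm3 points overlap across the line.

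The second comparison the design allows is between female and male mice of both exposures, with exposure as covariate. In this fit, with 10 mice of each sex, 2 of 9 genes passed p under 0.005 (22% of them, against 31.1% of all genes), the same 2 passed p under 0.05 (48.4% of all genes) and the same 2 had an adjusted p under 0.05 (40.4% of all genes). Differences between the sexes were thus frequent among all genes, and not more so among the 9. Stat2 was higher in females, where 17.1% of all genes were higher at p under 0.005, and Ifit2 was lower in females, where 13.9% were lower.

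Stat2 had 15.9, 17.1, 16.3, 15.3 and 21.3 CPM in control females and 19.3, 17.4, 19.6, 14.4 and 19.4 CPM in nPM females. Control males had 13.6, 14.9, 14.2, 13.3 and 13.7 CPM and nPM males had 14.7, 14.8, 13.9, 14.6 and 14.3 CPM. Apart from nPM female 4, every female lay above every male. The log2 difference of females over males was 0.31 (SE 0.06, n = 10 per sex, 95% interval 0.18 to 0.44, p = 7.15e-05, adjusted p = 0.00059). It stayed past p under 0.005 when any 1 of the 20 samples was left out, and without the 7 libraries rich in Ttr it was 0.26 (adjusted p = 0.0659).

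Ifit2 had 14.6, 10.6, 8.51, 9.01 and 8.36 CPM in control females and 10.3, 11.1, 9.68, 13.1 and 12.9 CPM in nPM females. It had 15.01, 13.8, 14.1, 14.3 and 11.8 CPM in control males and 14.8, 13.7, 11.1, 13.1 and 12.3 CPM in nPM males. Of the 10 males, 9 had 11.8 CPM or more, whereas 7 of the 10 females had 11.1 CPM or less. The log2 difference was -0.33 (SE 0.10, n = 10 per sex, 95% interval -0.53 to -0.13, p = 0.00262, adjusted p = 0.00965), and p was past 0.005 in 13 of the 20 fits with a sample left out. Without the 7 libraries it was -0.41 (adjusted p = 0.0497). The other 7 genes had differences from -0.43 (Bst2) to 0.79 (Isg15) with p from 0.0691 to 0.519. With age added to the model, Stat2 differed by 0.36 (adjusted p = 0.904) and Ifit2 by 0.01 (adjusted p = 0.998), but the ages of the sexes did not overlap, so this fit could not separate them, and EdU, given to males, went with sex as well.

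The level of these genes varied between individual mice within every group. Scored as the mean z score of the 9 genes over the 20 samples, nPM female 5 stood highest with 1.43 and had the highest value of its group in 6 of 9 genes. It was followed by nPM female 1 (0.83), control males 4 (0.73) and 2 (0.68), nPM male 1 (0.66) and control female 1 (0.65). The lowest scores were those of nPM male 4 (-0.91) and control female 4 (-0.91). High and low samples were thus found in both exposures and both sexes. In nPM female 5, Ifit1 (4.86 CPM), Ifit3 (6.04 CPM), Isg15 (0.820 CPM), Oasl2 (3.31 CPM) and Usp18 (1.67 CPM) all had their highest value of the 20 samples.

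**Figure D4:**
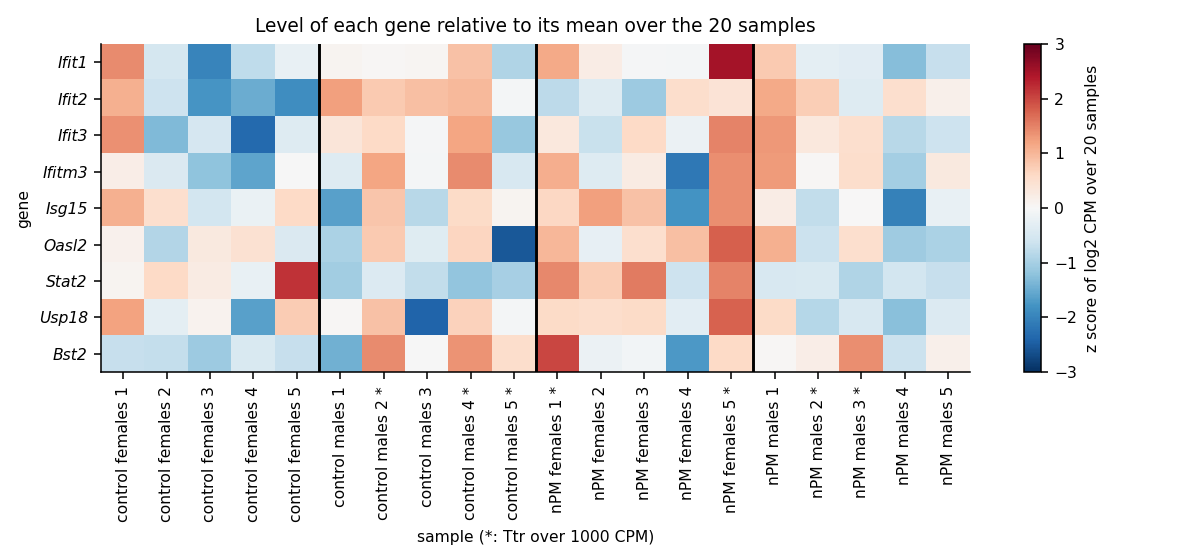
z score of log2 CPM of each gene (rows) in each of the 20 samples (columns), red above and blue below the gene's mean, with black lines between groups and stars on the 7 libraries with over 1000 CPM of Ttr. The column of nPM female 5 is red for all 9 genes, with z scores from 0.41 to 2.49.

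The 9 genes varied together. After group means were removed from log2 CPM, 32 of the 36 pairs were positively correlated, where 49.7% of all pairs of tested genes were, and 5 pairs had a Pearson r of at least 0.7, as did 1.28% of all pairs. The median r over the 36 pairs was 0.448, and it was -0.002 over all pairs of genes. The closest pair was Ifitm3 and Isg15 (r = 0.845, rho = 0.805, permutation within groups with 100000 resamples, p = 0.00013, adjusted p = 0.00468 over 36 pairs, r = 0.716 without the 2 farthest samples). Ifit1 and Ifit3 (r = 0.746, rho = 0.725, adjusted permutation p = 0.0122) and Ifit1 and Ifitm3 (r = 0.736, rho = 0.782, adjusted permutation p = 0.00684) were next among the effectors. In all, 13 pairs had an adjusted p under 0.05 with Pearson's r, and 11 had with Spearman's rho.

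Ifitm3 was the most connected gene, with 6 of its 8 pairs past the adjusted threshold and a median r of 0.696. Ifit2 and Stat2, the 2 genes that differed between the sexes, had 1 such pair each, and their own correlation was the lowest of all (r = -0.343, permutation p = 0.278). Bst2 was correlated with Ifitm3 (r = 0.714, rho = 0.642) and Isg15 (r = 0.729, rho = 0.594), each with an adjusted permutation p of 0.0159. Fewer of these pairs were called when samples were left out, and with fewer samples a pair is also harder to call. With the 2 samples farthest from the median of the first gene left out for each pair, the median r was 0.377, and when group means were then taken anew from the remaining 18 samples it was 0.343 with 4 pairs past the adjusted threshold, and without the 7 libraries rich in Ttr it was 0 with a median r of 0.363, while 30 of the 36 pairs were still positive.

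**Figure D5:**
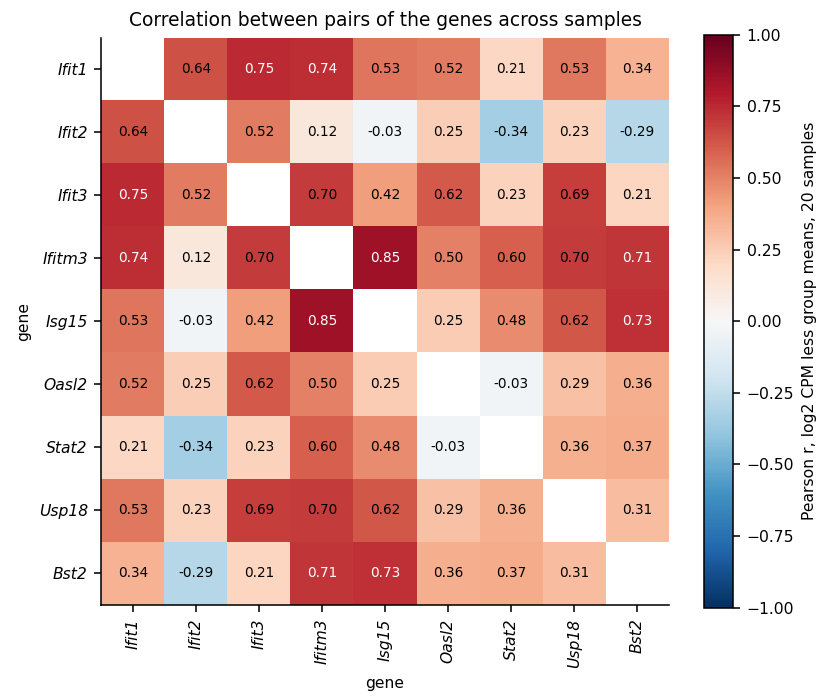
Pearson r between each pair of the 9 genes (rows and columns) over the 20 samples, from log2 CPM less group means, with the value printed in each cell. Ifitm3 has the highest values, up to 0.85 with Isg15, and the 4 negative cells above the diagonal are in pairs with Ifit2 or Stat2.

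The genes whose pattern was most like the mean of the 9 were, over 20 samples and 19788 other genes, Emp3 (r = 0.894), Islr (0.871), Syde1 (0.858), Serping1 (0.853), an inhibitor of complement, and H2-K1 (0.853), a classical MHC class I gene. The 5 are given as a description, and not one was in the lists of other interferon genes. These lists are a selection, so absence from them does not show that interferons leave a gene unchanged. Those lists supplied 2 of the 20 and 6 of the 50 most similar genes, led by Ifitm1 (r = 0.838) and Gbp2 (0.831), and made up 0.414% of the genes compared. Genes of connective tissue and matrix stood among the same 20, named after their values were seen, with Bgn (0.840), Col1a1 (0.828), which is on the meningeal fibroblast list, and Col3a1 (0.828). The median r with the mean of the 9 was 0.469 over the 82 other interferon genes tested and -0.004 over all genes.

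Markers of other cell types were set beside each gene, with 99 relations in the family. The choroid plexus list was left out of this family, so the relations below were not ranked against it. Expression of neuronal markers (Snap25, Camk2a and others, all 6 past the filter) summed to 2720 to 4392 CPM, most of it from Snap25 and Camk2a, which forebrain neurons in general express. Prox1, a marker of the dentate gyrus, was at 63.5 to 150.3 CPM. In this family 3 relations passed an adjusted p of 0.05 with Pearson's r. Ifit1 was related to border macrophages and monocytes (r = 0.760, rho = 0.756, permutation p = 0.00054 and 0.00074, adjusted p = 0.0267 and 0.051, r = 0.798 without the 2 farthest samples), a list that summed to 5.70 to 20.6 CPM. Usp18 was related to meningeal fibroblasts (r = 0.705, rho = 0.606, permutation p = 0.00099 and 0.00684, adjusted p = 0.0327 and 0.0752, r = 0.533 without the 2 farthest). Bst2 was related to ependymal cells (r = 0.889, rho = 0.788, permutation p = 0.00013 and 0.00103, adjusted p = 0.0129 and 0.051, r = 0.805 without the 2 farthest). With Spearman's rho not one of the 3 passed. The meningeal list summed to 37.4 to 101 CPM in control females, 25.3 to 214 CPM in nPM females, 33.0 to 245 CPM in control males and 56.2 to 185 CPM in nPM males, and the ependymal list to 9.24 to 20.8, 3.82 to 29.0, 8.79 to 38.6 and 13.4 to 32.02 CPM in the same order. The lymphocyte marker Cd3e was at or under 3 counts in every sample.

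The rest of the pathway gave the setting for the 9 genes. Of 104 other genes listed, 82 could be tested. These lists, too, were chosen with earlier results of these data known. The 9 interferon ligands were not detectable at this depth, with 0 to 2 counts per sample, and Ifnb1, Ifna1, Ifna4, Ifnl2 and Ifnl3 had no count in any sample. The receptors and signaling genes were detected, but not one of the 5 tested receptors and 6 signaling genes passed p under 0.05 for nPM in females, in males or in both sexes. In both sexes together, 1 of 82 genes rose at p under 0.005, where 0.141% of all genes were called in either direction. It was Irf5, a transcription factor of interferon and cytokine genes (log2 fold change 0.31, SE 0.09, n = 10 per exposure, p = 0.00215, adjusted p = 0.9998). At p under 0.05, 4 of the 82 were higher and 2 lower, against 197 higher and 219 lower of all 19797 genes (2.1%). The rest of the 5 with the smallest p passed p under 0.05 only. Of these, Rsad2 (0.45, SE 0.17) and Gbp3 (0.45, SE 0.19) were higher. Ube2l6 (-0.38, SE 0.14) and Ifit1bl1 (-0.33, SE 0.14) were lower.

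In females 67 of the 82 pathway genes had fold changes above 0, with a median of 0.23, where 51.2% of all genes were above 0. Irf5 was the 1 gene to pass p under 0.005 (0.51, SE 0.15), as did 0.0909% of all genes. At p under 0.05, 8 genes were higher and 0 lower, against 191 higher and 202 lower of all 19797 genes (1.99%). Among the 8 were Parp9 (0.38, SE 0.13), Tlr3 (0.27, SE 0.10), the sensor of double-stranded RNA, Rsad2 (0.65, SE 0.24), an antiviral enzyme, and Trim30a (0.42, SE 0.18). In males 35 of 82 were above 0, where 9810 of all 19797 genes were, and 0 passed p under 0.005 (0.207% of all genes). At p under 0.05, 3 were lower and 0 higher (4.28% of all genes in either direction). The 3 were Herc6 (-0.38, SE 0.14), Ifit1bl1 (-0.48, SE 0.19) and Ifih1 (-0.34, SE 0.14), another RNA sensor. In the test of the sex difference 0 of 82 passed p under 0.005 and 11 were lower in males at p under 0.05, with 64 of 82 below 0 and a median of -0.27. Of all 19797 genes, 301 were lower at p under 0.05 and 47.5% were below 0. The 5 with the smallest p were Ifi44 (-1.53, SE 0.56), Trim30a (-0.62, SE 0.23), Irf8 (-0.55, SE 0.21), Ifih1 (-0.61, SE 0.23) and Irf1 (-0.59, SE 0.23). In limma-voom, no pathway gene had an adjusted p under 0.05 for nPM in any of these comparisons. The 82 genes had a median r of 0.469 with the mean of the interferon-stimulated genes described first. Their shared sign in females and in the sex difference is therefore less than 82 separate observations. Whether these signs hold without the libraries rich in Ttr was not tested for the 82.

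Between the sexes, 5 of the 82 were higher and 3 lower in females at p under 0.005, where 17.1% of all genes were higher and 13.9% lower, so the pathway genes were not called more often than others. Samhd1, an antiviral nucleotide hydrolase (0.38, SE 0.06, adjusted p = 6.32e-05), the kinase Tyk2 (0.47, SE 0.09, adjusted p = 0.00045), Sp100 (0.88, SE 0.20, adjusted p = 0.00153), Parp14 (0.48, SE 0.13, adjusted p = 0.00604) and the RNA editing enzyme Adar (0.18, SE 0.05, adjusted p = 0.0126) were higher. Ifitm2 (-1.03, SE 0.22, adjusted p = 0.000896), Cmpk2 (-0.32, SE 0.08, adjusted p = 0.00226) and B2m (-0.26, SE 0.07, adjusted p = 0.00754), the light chain of MHC class I, were lower. Of the receptors, Ifngr1 (-0.23, SE 0.09, adjusted p = 0.0453) was lower in females.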

How the data were processed

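Per the labels and the study's methods, the authors extracted RNA from the hippocampus, prepared ribosomal RNA-depleted libraries, trimmed adapters where needed, aligned reads with HISAT2 (mm10) and summed them over Gencode M11 genes with featureCounts 1.5.0-p3. They deposited whole-number counts without normalization, and a gene map with gene lengths and the mean RPKM of each gene. Here CPM and RPKM were recomputed from the deposited counts with TMM factors (edgeR 4.0.16). The filter was filterByExpr on the 4 groups (minimum count 10, minimum total 15), and limma-voom (limma 3.58.1, R 4.3.3; 0.5 added to counts) was fitted with the study's threshold of p under 0.005 beside a Benjamini-Hochberg adjusted p of 0.05 over all genes. The fits were tested on simulated counts in which 200 genes changed 2-fold. At p under 0.005 they recovered 173 of these for both sexes, 151 in males, 154 in females and 127 in the sex difference. The simulated counts held no sex effect, litters or differences in choroid plexus content, so they do not cover these features of the data. Log2 CPM was compared by exact permutation within a sex and correlated after group means were removed. Python 3.11.15, numpy 2.4.6, pandas 2.3.3, scipy 1.17.1 and matplotlib 3.10.9 were used. Intervals on counts cover counting error only. Pairs of samples of a group differed by 16.3 to 90.2 times counting noise, so no library was counted as a duplicate, and mitochondrial rRNA took 9.16% to 13.3% of counts.

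Text genes were all 9 genes, the pathway genes at p under 0.005 or with the 5 smallest p per comparison, the 5 genes most like the mean of the 9, and paralogs or overlapping genes. The genes and lists were chosen with earlier results of these data known. The 1 gene of the lists not matched by symbol was Mb21d1. Alternatives were the edgeR quasi-likelihood test, DESeq2 1.42.0, RLE scaling, no filter, age, a replicate block, 1 fit of the 4 groups and each sample left out. The choroid plexus covariate and the removal of libraries over 1000 CPM of Ttr were added after the data were seen.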

Additional observations from a re-analysis of the deposited data

Results flagged for a closer look

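Isg15 in nPM female 4 stood apart from its group. The gap to the nearest of the other 4 samples was 0.76 of the group's range of log2 CPM, above Dixon's 95% critical value of 0.71 for 5 samples. The sample had 1 count of Isg15 (0.0546 CPM), where the other nPM females had 14 to 25 counts (0.462 to 0.820 CPM). It was the 1 set flagged among 36 sets of a gene in a group, and chance alone flags about 1 in 20. The same sample also had the lowest Bst2 (0.655 CPM) and Ifitm3 (1.69 CPM) of the 20, and had 31 counts of Ifitm3. Without nPM female 4, the fold change of Isg15 in females was 0.82 in place of 0.34 on the log2 scale, past p under 0.05 in limma-voom. No cause was tested.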

How the results depend on the processing

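The count of 0 genes at p under 0.005 for nPM held in every alternative run, and so did 0 at an adjusted p under 0.05. At p under 0.05 in females, edgeR, DESeq2 and the replicate block called Bst2 and the fit of 4 groups called Ifit1, and DESeq2 called Bst2 in the sex difference. With 1 sample left out, 9 of 90 values in females and 10 of 180 in the sex difference had p under 0.05. The replicate numbers do not pair the samples (correlations of same-numbered samples from -0.364 to 0.157), and the block left the counts at p under 0.005 at 0 for nPM and 2 between the sexes. The values that changed sign, on the log2 scale, were these. For both sexes they were Isg15 with edgeR (0.0233), DESeq2 (0.00913), the block (0.0647) and without the Ttr-rich libraries (0.138), and Usp18 with DESeq2 (-0.000791). Without the Ttr-rich libraries they were Ifitm3 (0.199), Isg15 (0.569), Usp18 (0.739) and Bst2 (0.463) in males, Isg15 (-0.0542) in females, Ifitm3 (0.191), Isg15 (0.620), Stat2 (0.0259), Usp18 (0.446) and Bst2 (0.345) in the sex difference, and Ifit1 (-0.0150) between the sexes. With age they were Ifit2 (0.00782), Ifit3 (0.478), Ifitm3 (0.580) and Bst2 (0.676) between the sexes. With 1 sample left out, the ranges were -0.0098 to 0.0703 (Ifit2), -0.176 to 0.274 (Isg15) and -0.0367 to 0.335 (Usp18) for both sexes, and -0.156 to 0.0854 (Ifit3), -0.202 to 0.0975 (Ifitm3), -0.134 to 0.322 (Oasl2) and -0.506 to 0.0516 (Bst2) in males. In females, every sign stayed positive with any 1 sample left out. Between the sexes, the count of 2 genes was 0 with age, 0 without the Ttr-rich libraries and 1 to 2 with 1 sample left out, being 1 without control females 3, 4 or 5, control males 1 or 4, nPM female 3 or nPM male 1, when Ifit2 was lost. The 13 correlated pairs became 4 without the 2 farthest samples and 0 without the Ttr-rich libraries. The causes were not tested. Isg15 and Usp18 had the fewest counts.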
